A study of Mus musculus with 21 samples.

Results

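The GIMAP genes of the mouse, named Gimap1, Gimap3, Gimap4, Gimap5, Gimap6, Gimap7, Gimap8 and Gimap9, were taken by name from the count tables. These 8 genes were among 17516 gene symbols, and every one was listed in all 21 libraries. RNA was measured in single CD8 T cells of OT1 mice, whose T cells carry 1 transgenic receptor for a peptide of ovalbumin. Naive cells were sampled on day 0. All other cells were activated with beads bearing antibodies to CD3 and CD28. Activated cells without added cytokine were sampled on days 3 and 5. The remaining 18 libraries came from activated cells that received IL-2, IL-15 or IL-2v at 5 or 50 IU/mL, and were sampled on days 3, 5 and 10. IL-2v is described in the labels as a mutant IL-2. The OT1 receptor and the bead stimulus were shared by all activated groups, and the age of the mice is not given in the sources used here. Titles were followed for 6 libraries whose treatment label names another interleukin: interleukin-3 where the title has IL-2 at 50 IU/mL (3 libraries), and interleukin-16 where it has IL-15 at 50 IU/mL (3 libraries). Each condition had 1 library, so no difference has a replicate check. No test between conditions was made, and a joint model of cytokine, dose and day over the 18 cytokine libraries was not fitted.

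GIMAP proteins (GTPases of the immunity-associated protein family) are small GTP-binding proteins found mainly in lymphocytes. Their genes lie side by side in 1 cluster. Several members are needed for the survival of resting T cells: mice without Gimap5 or Gimap1 lose most of their peripheral T cells. Some GIMAP proteins sit on membranes of lysosomes, mitochondria or the endoplasmic reticulum, and family members have been linked to BCL2 family proteins and to autophagy.

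After filtering, 3250 to 7105 cells per library remained, with 10589950 to 32648496 UMIs (unique molecular identifiers, each marking 1 captured RNA molecule) per library. The smallest total was that of 50 IU/mL IL-2 on day 5. The cells carried T cell markers: Cd3d, a chain of the CD3 complex, had a UMI in 93.0% to 99.5% of cells. Of the CD8 genes, Cd8a had a UMI in 37.0% to 74.2% of cells and Cd8b1 in 54.5% to 92.0%. Both were highest in naive cells, at 485 and 1144 CPM, and their lowest levels were 134 and 174 CPM. The summed T cell markers reached 1843 to 4354 CPM (UMIs scaled to a total of 1000000 per library), against 1.54 to 17.8 for B cell, 0 to 13.1 for CD4 T cell, 0.901 to 15.3 for myeloid and 0 to 3.15 for erythroid markers. Summed endothelial markers reached 6.60 to 76.5 CPM, nearly all from Pecam1, which T cells also express, and NK markers reached 7.96 to 193 CPM, mostly from Eomes, which activated CD8 T cells also express. Of the NK markers, Ncr1 stayed at or under 0.034 CPM, while Klrb1c reached 36.7 CPM and had a UMI in 0% to 13.0% of cells, the highest share with 50 IU/mL IL-2v on day 10. Its part in the results was not tested. Pairs of libraries shared 1 to 19 cell barcodes, at most 0.340% of the smaller library.

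In the GENCODE annotation of GRCm38 the 8 genes span 123.6 kb of chromosome 6, from position 48647234 to 48770851. Their order is Gimap8, Gimap9, Gimap4, Gimap6, Gimap7, Gimap1, Gimap5 and Gimap3. Gimap6 and Gimap3 lie on the minus strand and the other 6 on the plus strand. The promoters of 4 members are shown as examples: Gimap7 was lowest and Gimap8 highest in naive cells, Gimap4 had the largest median difference between IL-2 doses, and Gimap6 was, with Gimap3 and Gimap5, 1 of 3 members lower in cycling cells of every library before thinning. Each is the RefSeq window of 300 bases from GRCm38.p6, from 250 bases before the start of the gene to 50 after it, printed 5′ to 3′ on the strand of the gene. RefSeq gave 9 windows for the 8 genes, with 2 for Gimap8, and the later of these is printed. Capitals mark matches to AGGAAG (ETS factors) and TGTGGT (RUNX factors) on either strand.
Gimap7 promoter, chr6:48718371-48718670, plus strand: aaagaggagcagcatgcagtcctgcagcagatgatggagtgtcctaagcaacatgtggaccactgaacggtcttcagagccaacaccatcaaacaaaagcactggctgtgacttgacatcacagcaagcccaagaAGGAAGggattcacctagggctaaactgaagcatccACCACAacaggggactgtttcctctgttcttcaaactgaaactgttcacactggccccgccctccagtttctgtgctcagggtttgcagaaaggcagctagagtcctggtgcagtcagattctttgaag
Gimap8 promoter, chr6:48647111-48647410, plus strand: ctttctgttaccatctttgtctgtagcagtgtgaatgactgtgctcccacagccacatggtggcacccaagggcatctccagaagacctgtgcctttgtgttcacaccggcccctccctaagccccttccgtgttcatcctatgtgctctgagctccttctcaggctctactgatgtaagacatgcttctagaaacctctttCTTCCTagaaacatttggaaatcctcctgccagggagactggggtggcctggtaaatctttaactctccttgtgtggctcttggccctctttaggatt
Gimap4 promoter, chr6:48684328-48684627, plus strand: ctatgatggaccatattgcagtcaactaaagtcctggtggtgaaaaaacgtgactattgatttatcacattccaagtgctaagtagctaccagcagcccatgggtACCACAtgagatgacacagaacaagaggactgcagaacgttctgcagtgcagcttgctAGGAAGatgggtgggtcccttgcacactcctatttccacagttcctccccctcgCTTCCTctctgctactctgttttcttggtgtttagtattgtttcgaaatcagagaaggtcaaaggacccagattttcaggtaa
Gimap6 promoter, chr6:48708195-48708494, minus strand: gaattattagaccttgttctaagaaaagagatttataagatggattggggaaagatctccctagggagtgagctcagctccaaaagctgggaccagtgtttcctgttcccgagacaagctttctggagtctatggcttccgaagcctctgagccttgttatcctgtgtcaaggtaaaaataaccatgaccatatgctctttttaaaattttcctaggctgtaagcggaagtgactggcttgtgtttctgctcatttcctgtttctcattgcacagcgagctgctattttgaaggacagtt

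The ETS letters AGGAAG occurred for 7 of the 8 genes, all but Gimap6, in 7 of the 9 windows. They occurred in 35.4% of all 32851 RefSeq promoter windows of this length. No other spelling of ETS sites was searched, so Gimap6 lacks only these letters. RUNX letters occurred for 3 genes (Gimap1, Gimap4 and Gimap7), against 16.8% of all windows. TTCNNNGAA, the core letters of STAT sites, occurred for 4 genes (Gimap3, Gimap6, Gimap7 and Gimap8), against 8.30% of all windows. STAT5 is the main factor activated by the IL-2 receptor. CCACCC for KLF factors occurred for 5 genes against 31.5%, CTTTGA for TCF factors for 2 against 16.0%, and GTAAACA for FOXO factors for 1 against 3.65%. Both strands were searched, and in Gimap7 the TCF letters lie inside the STAT match. These are letter matches, not binding sites. The shares for the genes and for all windows are descriptions.

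All 8 members were detected in every library, from 49.7 CPM (Gimap8 with 50 IU/mL IL-2 on day 10) to 936 CPM (Gimap4 without cytokine on day 5). Summed over the 8 genes, the level ran 3.04-fold, from 1195 CPM with 50 IU/mL IL-2 on day 10 (exact Poisson 95% interval 1182 to 1208) to 3633 CPM without cytokine on day 5 (3610 to 3656). Naive cells, at 2118 CPM, were ninth from the bottom of the 21 libraries. This range and order hold for CPM. Scaling by trimmed means divides levels by a factor, which was 0.822 for the lowest library, the smallest of the 21. The factor was 1.11 for the next library up, 50 IU/mL IL-2 on day 3. Under that scaling these libraries have almost the same summed level, so which library is lowest holds for CPM only. In the order of the summed levels, intervals overlapped for 3 of 20 neighbouring steps, so counting error was small beside the spread. Intervals here cover counting error alone and say nothing of the variation between cultures. Each cell of a library shares its culture, so cells are not replicates.

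**Figure D1:**
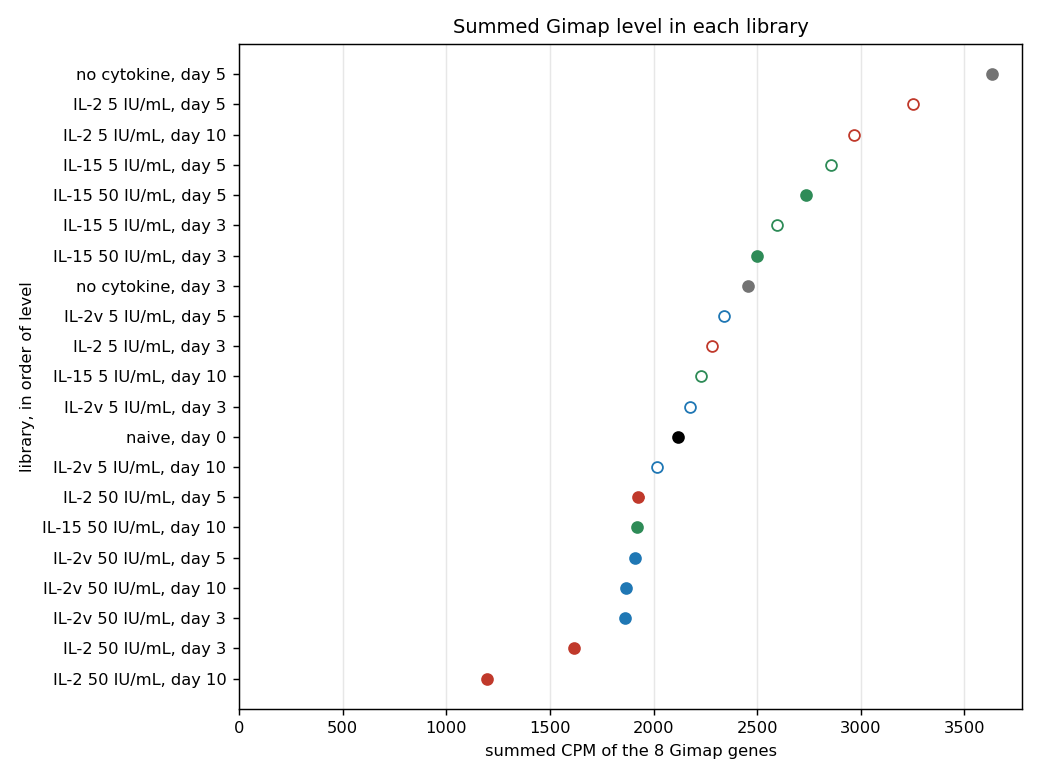
Summed CPM of the 8 Gimap genes in each of the 21 libraries, ordered by level, with exact Poisson 95% intervals that are narrower than the symbols; red is IL-2, blue IL-2v, green IL-15, grey no cytokine and black naive, and open circles are 5 IU/mL. The lowest library is 50 IU/mL IL-2 on day 10 at 1195 CPM and the highest is activated cells without cytokine on day 5 at 3633 CPM.

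The libraries at both ends of this order are described here per cell. At equal depth per cell these values largely follow from the summed CPM and are no separate support for the gap. With each cell thinned at random to 2000 UMIs, 86.4% of cells with 50 IU/mL IL-2 on day 10 had a UMI of any member (exact 95% interval 85.4% to 87.4%), against 99.8% of cells without cytokine on day 5 (99.6% to 99.9%). The median cell held 2 member UMIs in the first library and 7 in the second. UMIs of 3 or more different members were found in 33.0% and 90.9% of these cells. Every library consisted of T cells, so no cell type that lacks the genes was at hand to measure background from free RNA.

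After activation 1 of 8 members, Gimap7, was called higher, a share near the 11.1% of all genes tested that were called higher. Gimap7, which has been described to stimulate the GTPase activity of a relative, rose from 110 CPM in naive cells to 319 CPM on day 3 without cytokine. Its ratio was 2.90 (counting interval 2.76 to 3.05), a difference of 1.53 on the log2(CPM + 1) scale used throughout, which understates changes of low genes. Its share of thinned cells with a UMI was 18.2% in naive cells and 46.3% on day 3. Naive cells had the lowest Gimap7 level of all 21 libraries. Gimap8, a long member with several GTP-binding domains, was at 135 CPM in naive cells and 77.6 CPM on day 3, a difference of -0.79 that did not reach 2-fold. Its naive level was the highest of the 21 libraries, and the next was 91.5 CPM, with 5 IU/mL IL-2 on day 10.

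Of the other members, Gimap4 was at 406 CPM in naive cells and 687 CPM on day 3 (0.76), and Gimap3 at 499 and 338 CPM (-0.56). Gimap4 has been linked to the pace of T cell death, and Gimap3 is a close relative of Gimap5. Gimap1 differed by 0.24, Gimap9 by 0.18, Gimap5 by 0.06 and Gimap6 by -0.03. Counting intervals of the ratio included 1 for Gimap5 and Gimap6, and the direction of both depended on the scaling. With a call set at a 2-fold difference and genes tested where either arm reached 20 CPM, 1 of 8 members was called higher and 0 lower, against 11.1% and 8.31% of the 6171 genes tested. The members' median difference was 0.12, and that of all genes -0.11. The summed level was 1.16 times the naive level.

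Between days 3 and 5 without cytokine all 8 members were higher on day 5, by 0.15 (Gimap8) to 0.89 (Gimap3). The summed level went from 2456 to 3633 CPM, a ratio of 1.48 (counting interval 1.464 to 1.495). No member reached 2-fold, against 3.61% of genes called higher and 9.47% called lower. All genes tested had a median difference near 0, and the 8 members had a median of 0.50. Cells with a UMI of Mki67 or Top2a, 2 genes of cycling cells, made up 59.96% of the library on day 3 and 13.8% on day 5. Among cells without such a UMI the difference in the summed level was 0.36.

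**Figure D2:**
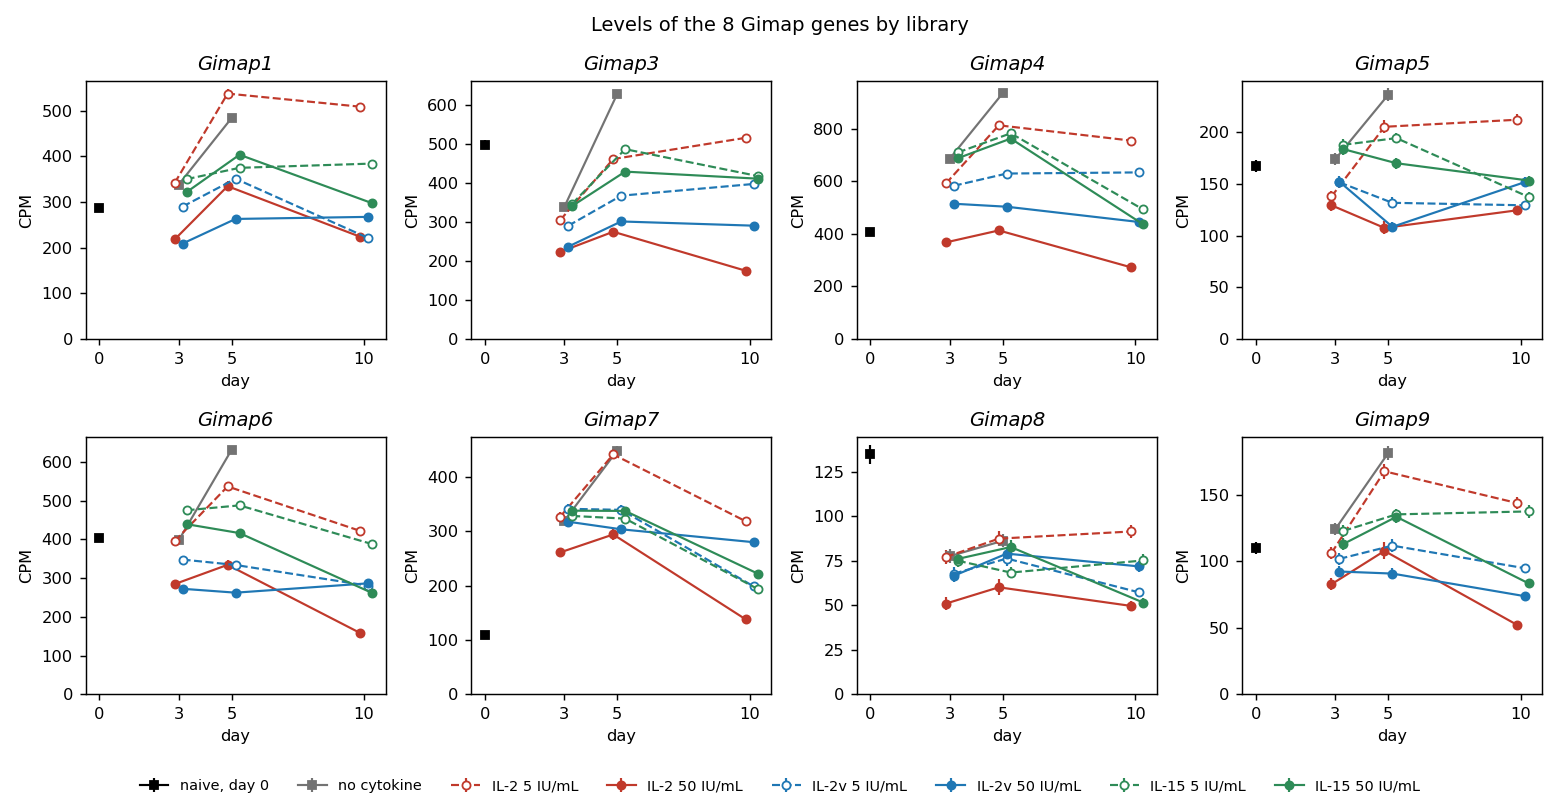
CPM of each of the 8 Gimap genes against the day of culture, with exact Poisson 95% intervals; black is naive, grey no cytokine, red IL-2, blue IL-2v and green IL-15, with open symbols and dashed lines for 5 IU/mL, and points shifted slightly sideways. Gimap7 starts at its lowest level (110 CPM) and Gimap8 at its highest (135 CPM) in naive cells, and 50 IU/mL IL-2 lies under 5 IU/mL IL-2 for every gene on every day.

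Cytokine was set against none on days 3 and 5. All 6 comparisons of a day share 1 control library, so their values are given side by side. On day 3, 5 IU/mL of any cytokine left the summed level within 0.18 of the control: IL-2 differed by -0.11, IL-2v by -0.18 and IL-15 by 0.08. At 50 IU/mL it was 1618 CPM under IL-2 (-0.60), 1862 CPM under IL-2v (-0.40) and 2501 CPM under IL-15 (0.03), against 2456 CPM in the control. The direction for 50 IU/mL IL-15 turned with another scaling. No member was called on day 3. The shares of all genes called lower and higher were 0.106% and 0.142% for 5 IU/mL IL-2, and 2.74% and 6.45% for 50 IU/mL. For IL-2v they were 0.0704% and 0.211% at 5 IU/mL, and 1.75% and 7.83% at 50 IU/mL. For IL-15 they were 0.285% and 0.142% at 5 IU/mL, and 0.261% and 0.819% at 50 IU/mL.

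On day 5 all 8 members were lower than in the control with both doses of IL-2v, both doses of IL-15 and 50 IU/mL IL-2. With 5 IU/mL IL-2, 6 of 8 were lower and the summed level was 3251 CPM (-0.16), against 3633 CPM in the control. It was 1927 CPM with 50 IU/mL IL-2 (-0.91), 2342 and 1913 CPM with 5 and 50 IU/mL IL-2v (-0.63 and -0.93), and 2855 and 2736 CPM with 5 and 50 IU/mL IL-15 (-0.35 and -0.41). Among all genes tested, 66.8% were below the control at the lower dose of IL-2 and 44.4% at the higher dose. The shares at the lower and the higher dose were 44.2% and 35.5% where IL-2v was added, and IL-15 gave 62.0% and 49.4%. Of these 6 comparisons, those with 50 IU/mL of IL-2 and of IL-2v had members called. With 50 IU/mL IL-2, Gimap3 (-1.19), Gimap4 (-1.18) and Gimap5 (-1.13) fell, 3 of 8 members against 7.54% of all genes. Under 50 IU/mL IL-2v, Gimap3 (-1.06), Gimap5 (-1.12) and Gimap6 (-1.26), which has been tied to autophagy, fell, 3 of 8 against 5.53%. These calls went to 0 in both comparisons when cells with a Mki67 or Top2a UMI were left out, where the summed differences were -0.72 and -0.65. Scaling by trimmed means raised the IL-2v count to 6. In the comparisons with 0 members called, the shares of genes called lower and higher were 0.36% and 2.14% for 5 IU/mL IL-2 and 2.62% and 9.75% for 5 IU/mL IL-2v. They were 0.321% and 1.42% for 5 IU/mL IL-15 and 1.9% and 5.82% for 50 IU/mL IL-15. Where members were called lower, 16.5% (IL-2) and 21.1% (IL-2v) of genes were called higher, and 0 members were.

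Between the doses of IL-2, the members differed in 1 direction on every day. Summed levels with 5 and 50 IU/mL were 2283 and 1618 CPM on day 3, 3251 and 1927 CPM on day 5, and 2968 and 1195 CPM on day 10. The 50 IU/mL library had the lower level on each day, with log2 differences of -0.50, -0.75 and -1.31. All 8 members were lower at 50 IU/mL on all 3 days, as were 20.9% of the 5879 genes tested. The median differences of the members over the 3 days ran from -0.58 (Gimap7) to -0.98 (Gimap4), with a member median of -0.68 beside 0.03 for all genes. By the rule of equal sign on 3 days and a median of 2-fold, 0 members were called, against 2.7% of genes called lower and 4.29% called higher. The count of members called lower became 4 without day 3, 2 without day 5, and 1 with scaling by trimmed means.

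Gimap4 stood at 592 and 368 CPM with 5 and 50 IU/mL IL-2 on day 3, at 814 and 413 CPM on day 5, and at 755 and 273 CPM on day 10. Gimap3 stood at 305 and 224 CPM, 462 and 275 CPM, and 516 and 175 CPM on the same days. For every member but Gimap9, all 3 levels at 5 IU/mL were above all 3 at 50 IU/mL. Gimap9 stood at 106.2 CPM with 5 IU/mL on day 3 and at 107.7 CPM with 50 IU/mL on day 5. Gimap5, the member whose loss in mice shortens the life of T cells, differed least on day 3, at 138 and 129 CPM, and stood at 212 and 124 CPM on day 10. On day 10 alone 6 of 8 members were at least 2-fold lower at 50 IU/mL, all but Gimap5 (-0.76) and Gimap8 (-0.87), against 14.5% of genes in that pair of libraries. Of all genes tested in that pair, 67.0% were lower, with a median of -0.30. Scaling by trimmed means moved its summed difference from -1.31 to -1.004, with all 8 members still lower. Of the 6 members, Gimap1 (-1.18) and Gimap7 (-1.20) were nearest to 2-fold. The count of members at 2-fold under that scaling is not given here. The share of cells with a Mki67 or Top2a UMI at 5 and 50 IU/mL was 62.8% and 73.8% on day 3, 18.7% and 50.4% on day 5, and 18.2% and 13.4% on day 10. Among cells without such a UMI the summed median difference was -0.59, and every member's median was still below 0.

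**Figure D3:**
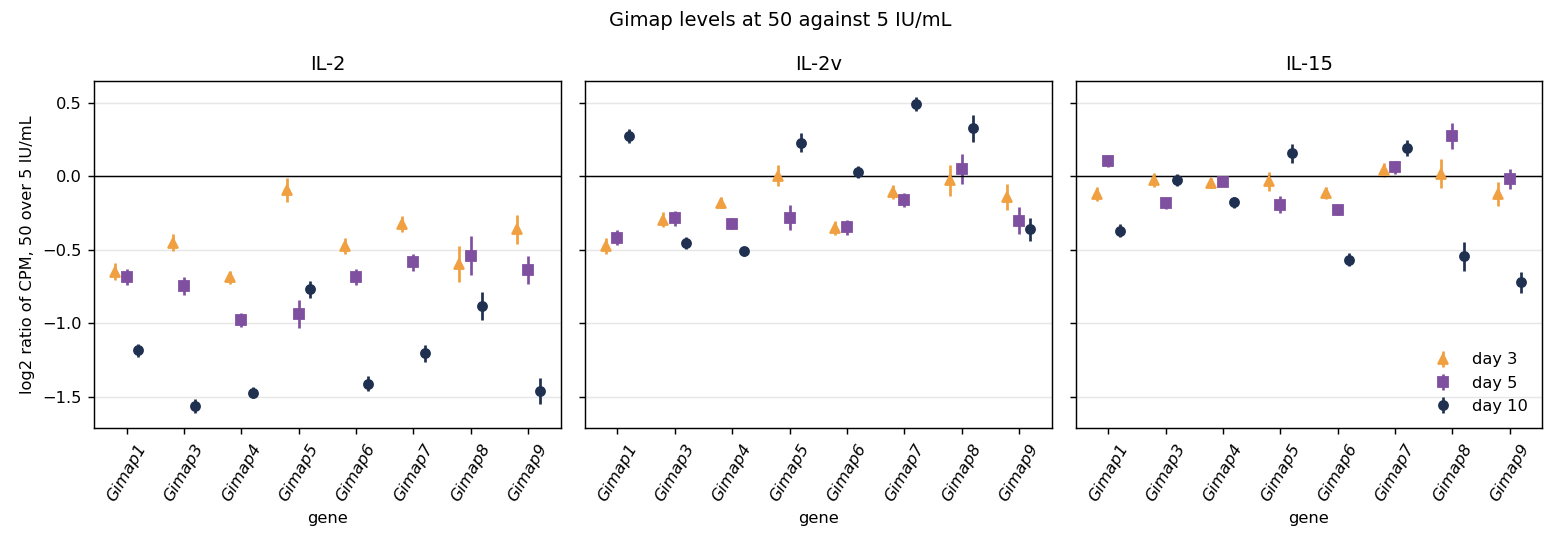
Log2 ratio of CPM at 50 over 5 IU/mL for each Gimap gene with IL-2, IL-2v and IL-15, on day 3 (triangles), day 5 (squares) and day 10 (circles); bars are exact 95% intervals for counting error. All 24 points of IL-2 lie below 0, while those of IL-2v and IL-15 lie on both sides.

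With the other cytokines the summed differences between doses were nearer to 0. With IL-2v the summed level at 5 and 50 IU/mL was 2174 and 1862 CPM on day 3, 2342 and 1913 CPM on day 5, and 2014 and 1868 CPM on day 10, a median difference of -0.22. Gimap3, Gimap4 and Gimap9 were lower at 50 IU/mL on all 3 days, 3 of 8 members beside 15.8% of genes. On day 10 the other 5 members were higher at 50 IU/mL, by 0.03 (Gimap6) to 0.49 (Gimap7). In that pair 60.6% of all genes tested were lower, with a median of -0.13. The counting intervals of Gimap6 overlapped there (275 to 287 and 280 to 293 CPM). With IL-15 the summed levels were 2597 and 2501 CPM, 2855 and 2736 CPM, and 2228 and 1918 CPM, a median difference of -0.06. Here 4 members were lower and 1, Gimap7, was higher on all 3 days, beside 16.6% and 20.5% of genes. Counting intervals of the 2 doses overlapped on at least 1 day for Gimap3, Gimap4, Gimap7 and Gimap9, so not all these signs were clear of counting error. Under scaling by trimmed means Gimap7 differed by -0.08 on day 5, and 0 members were higher on all 3 days, as with totals that leave out ribosomal protein and mitochondrial genes. Members lower on all 3 days numbered 2 to 4 over the settings of scaling and cells tried. No member was called for either cytokine, where 0.626% and 0.181% of genes were called lower and 2.38% and 0.869% higher.

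IL-2v, the engineered relative of IL-2, was compared with IL-2 in 6 pairs of equal day and dose. At 5 IU/mL the summed level was lower with IL-2v than with IL-2 on each day, at 2174 against 2283 CPM, 2342 against 3251 CPM, and 2014 against 2968 CPM. All 8 members were lower on days 5 and 10, where 30.7% and 58.9% of all genes tested were lower. The widest gap was that of Gimap1, which mice need to keep mature lymphocytes, at 221 against 509 CPM on day 10 (-1.20). At 50 IU/mL the summed level was 1862 against 1618 CPM on day 3, 1913 against 1927 CPM on day 5, where the counting interval of the ratio included 1, and 1868 against 1195 CPM on day 10. On day 3, 6 of 8 members were higher with IL-2v, while 44.0% of all genes tested were lower. The day 3 difference of 0.20 was 0.04 (3 of 8 higher) among cells without a Mki67 or Top2a UMI. That of day 5, -0.01, was 0.07 in such cells and -0.20 under scaling by trimmed means. On day 10 all 8 members were higher with 50 IU/mL IL-2v, by 0.25 (Gimap1) to 1.01 (Gimap7, 280 against 138 CPM), while 43.1% of all genes tested were lower. Over all 6 pairs the summed median difference was -0.04, a direction that changed with the cells and pairs used. No member kept 1 sign in all 6 pairs or was called, against 1.04% of genes called higher and 0.274% called lower.

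**Figure D4:**
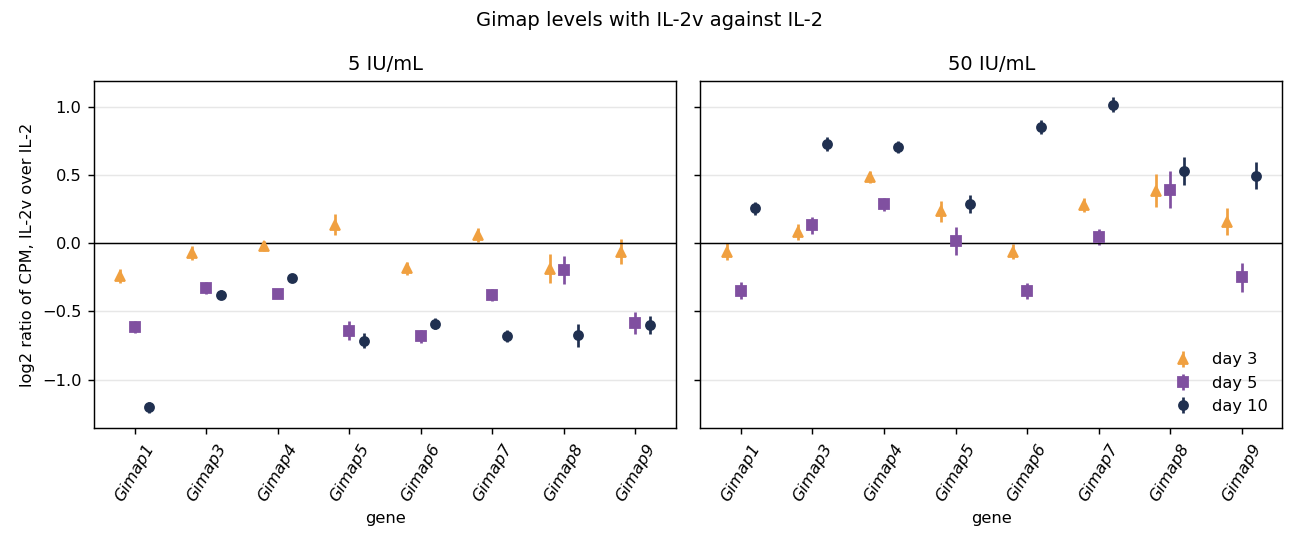
Log2 ratio of CPM with IL-2v over IL-2 for each Gimap gene at 5 IU/mL and 50 IU/mL, on day 3 (triangles), day 5 (squares) and day 10 (circles); bars are exact 95% intervals for counting error. At 5 IU/mL all 16 points of days 5 and 10 are below 0, and at 50 IU/mL all 8 points of day 10 are above 0.

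IL-15 shares the beta and gamma receptor chains with IL-2. At 50 IU/mL all 8 members were higher with IL-15 than with IL-2 on every day, and the summed ratios were 1.55, 1.42 and 1.61 on days 3, 5 and 10. Of all genes tested, 57.9%, 55.6% and 47.5% were lower with IL-15 in these pairs. On day 10 the count of members higher was 7 of 8 under scaling by trimmed means and with the mean CPM of single cells. Gimap3 differed most on day 10, at 411 against 175 CPM (1.23). At 5 IU/mL the summed level was 2597 against 2283 CPM on day 3, but 2855 against 3251 CPM on day 5 and 2228 against 2968 CPM on day 10. The median over all 6 pairs was 0.35 and turned negative with the 5 IU/mL pairs alone. No member was called, against 0.49% of genes called higher and 1.7% called lower. Between IL-2v and IL-15 the summed level was lower with IL-2v in all 6 pairs, with a median of -0.27 and 1868 against 1918 CPM in the closest pair, that of 50 IU/mL on day 10. That pair turned sign (0.02) when the CPM of single cells were averaged, and the 5 IU/mL pair of day 10 turned sign (0.06) among cells without a Mki67 or Top2a UMI. Gimap genes lower in every one of these pairs numbered 4 of 8, beside 8.02% of genes, and 1 to 5 over the settings of scaling and cells tried. No member was called, where 2.48% of genes were called higher and 0.585% lower.

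Day 10 was set against day 5 in 6 pairs of equal cytokine and dose. The summed level was lower on day 10 in each, from 1868 against 1913 CPM with 50 IU/mL IL-2v to 1195 against 1927 CPM with 50 IU/mL IL-2, a median of -0.29. The pair of 50 IU/mL IL-2v differed by -0.03, where 77.05% of all genes tested were lower and their median was -0.37. It turned to 0.35, with all 8 members higher, under scaling by trimmed means, and to 0.17 with totals that leave out ribosomal protein and mitochondrial genes. Gimap7 had the most negative median (-0.67). No member was called, against 0.0705% of genes called higher and 1.62% called lower.

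The 6 day 10 libraries were also set against the 1 naive library, which they share. Gimap7 was above its naive level of 110 CPM in all 6, from 138 CPM with 50 IU/mL IL-2 to 319 CPM with 5 IU/mL IL-2. It was called higher with 5 IU/mL IL-2 (background 9.49%), 50 IU/mL IL-2v (10.4%) and 50 IU/mL IL-15 (3.2%). In each it was the 1 of 8 members called higher, which is near the share of all genes for IL-2 and IL-2v. The IL-15 call rested on a difference of 1.01, which fell below 2-fold with a pseudocount of 10 CPM. Gimap8 was below its naive level of 135 CPM in all 6, from 49.7 to 91.5 CPM. Both directions follow from naive cells having the lowest Gimap7 and the highest Gimap8 level of the 21 libraries. Gimap8 was called lower with 50 IU/mL IL-2 (22.4%), 5 IU/mL IL-2v (9.48%) and 50 IU/mL IL-15 (6.21%). With IL-2v it was the 1 of 8 members called lower, near the share of all genes. With 50 IU/mL IL-2, Gimap3 (-1.51), Gimap6 (-1.34) and Gimap9 (-1.06) were called lower as well, so 4 of 8 members passed against 22.4% of genes; scaling by trimmed means left 2. With 5 IU/mL IL-2v that scaling gave 1 call higher beside the 1 lower. For the directions in which no member was called, the shares of genes were 5.54% lower with 5 IU/mL IL-2, 13.1% higher with 50 IU/mL IL-2, 9.11% higher with 5 IU/mL IL-2v and, at 50 IU/mL of it, 14.9% lower. With 5 IU/mL IL-15, 0 members were called, against 1.25% higher and 3.55% lower.

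In each activated library the summed CPM of the family was lower in cells with a Mki67 or Top2a UMI than in the other cells. CPM is a share of the UMIs counted, not an amount per cell. The summed level in such cells was lower in 20 of 21 libraries, with a median ratio of 0.800 to the other cells and a range of 0.733 (50 IU/mL IL-15 on day 3) to 1.05. The exception was the naive library, where 144 cells had such a UMI, and its counting interval, 0.997 to 1.10, included 1. Cycling cells were deeper in every library, and with all cells thinned to 2000 UMIs the median ratio was 0.804 and 20 of 21 libraries were again lower. The counting interval lay below 1 in 19 libraries before thinning and in 17 after it. The highest ratio of an activated library after thinning was 0.999. The naive ratio was then 1.16, with a counting interval of 1.05 to 1.28 that lay above 1, over 83 such cells. Gimap6 was lower in all 21 libraries, with a median ratio of 0.774, although its naive ratio was 1.01 after thinning. Gimap3 (0.752) and Gimap5 (0.735) were also lower in all 21 libraries before thinning. Gimap8 differed least (0.929), and its interval included 1 in 14 libraries. The split compares cells within a library and was not tested over replicates. It was not made for all genes, so no share of genes stands beside these counts, and whether the members differ from other genes was not tested.

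**Figure D5:**
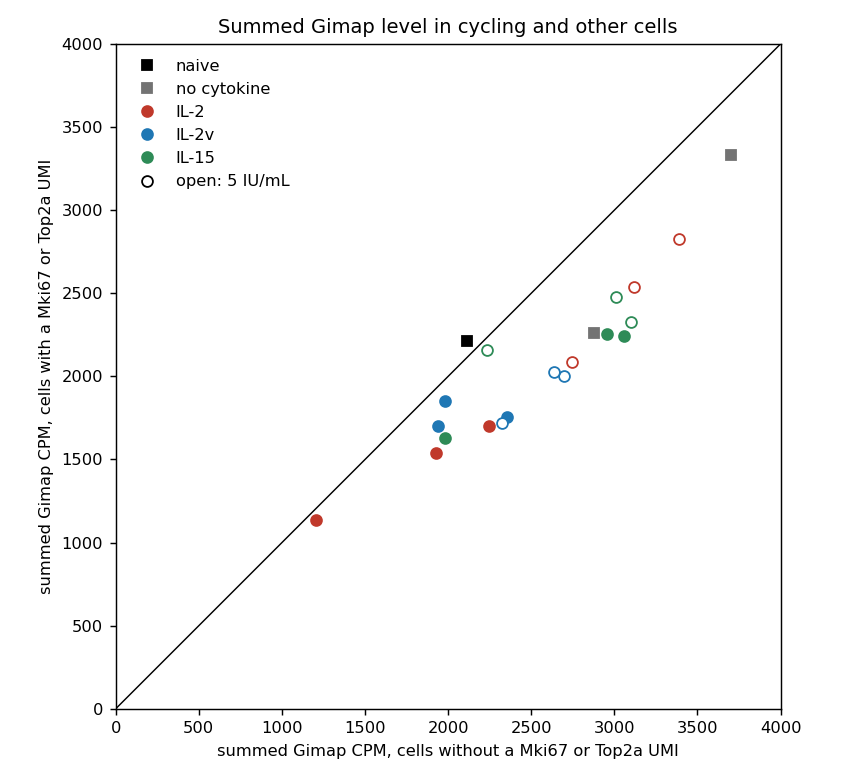
Summed Gimap CPM in cells with against cells without a Mki67 or Top2a UMI, 1 point per library (squares are naive cells and cells without cytokine), coloured by cytokine with open circles for 5 IU/mL; the line marks equal levels. Of 21 points, 20 lie below the line.

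Across the 21 libraries, each member was set against the sum of the other 7 on the log2 scale. Pearson's r was highest for Gimap9 (0.943) and Gimap6 (0.914), followed by Gimap4 (0.875), Gimap1 (0.814), Gimap5 (0.765) and Gimap3 (0.754). It was lowest for Gimap8 (0.573) and Gimap7 (0.551). The closest pair was Gimap6 and Gimap9 (0.938), and the least alike were Gimap7 and Gimap8 (0.055), the pair at opposite ends in naive cells. These values describe libraries that share cytokines, days and scaling to a total. Levels of Gimap3 and Gimap5 are uncertain where reads could not be told apart: 8.15% of the 50-base stretches of Gimap3 transcripts occur in another gene, mostly Gimap5, and 6.84% of those of Gimap5. For Gimap1 this was 5.94%, and for the other members it was at most 1.39%.

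Among 5487 other genes that averaged 20 CPM or more, the most similar to the summed members was Gimap1os (r = 0.928, Spearman's rho = 0.878, 21 libraries), a transcript on the opposite strand that overlaps 36.0% of the exonic bases of Gimap1. Whether the counting used strand is not given in the sources used here, so reads of the 2 genes may not have been told apart. Gimap1os ran from 21.2 to 86.0 CPM and had a median difference of -1.42 between IL-2 doses. Next came Plgrkt (0.925), a plasminogen receptor, Stap1 (0.918), a signalling adaptor, Trbc2 (0.895), a constant part of the T cell receptor beta chain, Irgm1 (0.894), an interferon-induced GTPase, Gramd3 (0.887), Samhd1 (0.885), a dNTP hydrolase, Lsp1 (0.883), Cxcr3 (0.882), a chemokine receptor, and Asap1 (0.880). The most opposed were Maco1 (-0.835), Sel1l (-0.800), Eprs (-0.793), Hspa9 (-0.786) and Babam2 (-0.782). Over all genes ranked, the fifth and 95th percentiles of r were -0.577 and 0.684.

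Of 11 non-member genes of the files within 200 kb of the cluster, 3 reached 20 CPM in any library. Besides Gimap1os these were Tmem176a and Tmem176b, which reached 55.8 and 59.0 CPM, both with 50 IU/mL IL-2v on day 10. The 2 were at 4.05 and 3.33 CPM without cytokine on day 3. With 50 IU/mL IL-2 on day 10, the library with the lowest summed CPM of the members, they were at 39.5 and 34.8 CPM. The other 8 neighbours, among them the long non-coding RNA 4833403J16Rik inside the cluster (8.93 to 17.3 CPM), stayed under 20 CPM.

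Of 18 genes in a list of naive and quiescence genes, 16 were tested between IL-2 doses, and 7 were called lower and 0 higher, against 2.7% of all genes called lower, with a median of -1.33 beside -0.68 for the members. Among them were S1pr1, Klf2, Klf3, Tcf7 and Slfn2. The list was chosen with earlier results of these data known, so its counts beside the shares of all genes are descriptions only. Klf2, a factor that keeps T cells quiescent, stood at 205.4 and 8.54 CPM on day 10 with 5 and 50 IU/mL IL-2. With IL-2v, 6 of 16 were called lower, against 0.626% of all genes, with a median of -0.95, among them S1pr1 (-2.55) and Klf2 (-1.94), where the members had a median of -0.29. With IL-15, 1 of 17 (Il7r) was called lower, against 0.181%, with a median of -0.24. After activation 8 of 17 were called lower and 0 higher, against 8.31% of all genes called lower, with a median of -0.88, beside the members' median of 0.12.

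Interferon-induced GTPases are another family of immune GTPases, which act against microbes inside cells. This list too was chosen with earlier results of these data known, so its counts are descriptions only. Of 19 listed, 16 were in the files and 12 were tested between IL-2 doses. Of these 5 were called lower and 0 higher (Gbp2, Gbp9, Irgm1, Iigp1 and Ifi47), where 2.7% of all genes were called lower and 4.29% higher, with a median of -0.67 beside -0.68 for the members. Irgm1 had a median of -1.35. With IL-2v 1 of 11 was called lower (Ifi47), against 0.626% of all genes, and with IL-15 0 of 12, against 0.181%.

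Among 5 transcripts of GIMAP-linked proteins, 1 was called higher and 1 lower between IL-2 doses, where 4.29% and 2.7% of all genes were. Bcl2l1, which encodes the survival protein BCL-XL, was called higher (1.34) and Gabarapl2, an autophagy protein linked to GIMAP6, lower (-1.27). The death effector Bax differed by 0.34 and the kinase gene Gsk3b by 0.16. Bcl2, the survival gene, changed direction with time: it had a median of 2.06 but was at 1173 and 333 CPM with 5 and 50 IU/mL IL-2 on day 10. Of 6 genes of the ATG8 autophagy family and the receptor Sqstm1, 5 were tested and Gabarapl2, which stands in both lists, was the 1 called lower, against the same 2.7%, with a list median of -0.01. After activation Bcl2 was called lower (-1.18) and Gabarapl1 higher, where 8.31% of all genes were called lower and 11.1% higher. These lists were likewise chosen with earlier results of these data known, so their counts are descriptions only.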

How the data were processed

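Per the labels, RNA of single cells was sequenced from 21 libraries, 1 per condition. The authors deposited raw whole-number UMI counts per gene symbol and cell barcode, 1 table per library. The submitters' processing notes name Cell Ranger, Seurat 4.0.1 and 3.0.2 and the build mm10, without roles; the annotation, strand setting and doublet removal are not given in the sources used here. The extraction protocol of the labels describes sorting CD44+ CD45.1+ CD8+ cells from tumours and the growth protocol a culture; libraries were treated as cultured cells. Day 7 was not analysed here.

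Barcodes under 1000 UMIs or 500 genes, or above 10% mitochondrial UMIs, were removed (2 in all). No doublet caller was run; leaving out cells above 2 times the median UMIs was an alternative. Counts were summed per library and scaled to CPM. Differences were taken on log2(CPM + 1), and genes were tested where the mean of either arm reached 20 CPM. A gene was called at a log2 difference of 1 in 1 pair, or with equal sign in all pairs and a median of 1. Cytokines and days had 6 pairs and doses 3. Pairs of other days or doses are not replicates, so no p-value was computed. Results of some items are not reported here, but counts of alternative values include them. The calling step was run on simulated counts with counting noise alone, for the rule of 3 pairs. That run does not cover variation between cultures, changes near 2-fold or calls from 1 pair. Intervals were exact at 95% (Poisson for CPM, conditional for ratios, Clopper-Pearson for shares) and cover counting error. Thinning used 2000 UMIs. The text names all 8 members, genes of the lists, neighbours within 200 kb, and the 10 most and 5 least similar genes. The members and lists were chosen with earlier results of these data known. Genes listed but not in the files were Gbp11, Mx1, Mx2, Alas2 and Emcn. Python 3.11.15, NumPy 2.4.6, pandas 2.3.3, SciPy 1.17.1 and matplotlib 3.10.9 were used, and edgeR 4.0.16 in R 4.3.3 for trimmed mean (TMM) factors.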

Additional observations from a re-analysis of the deposited data

Results flagged for a closer look

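In 5 cases all 3 pairs of one group had one direction and all 3 pairs of another group the opposite one. The difference between the groups was not tested in any of them. Each of the 8 members was checked in every pair of cytokines, both between doses and between dose steps. The share of all genes with such a split was not counted. Gimap3 was higher with IL-2v than with IL-2 in the 3 pairs at 50 IU/mL (median log2 difference 0.13) and lower in the 3 at 5 IU/mL (-0.33), a gap of 0.46. Under scaling by trimmed means its 50 IU/mL pair of day 5 was -0.06, and among cells without a Mki67 or Top2a UMI that of day 3 was -0.03, so the 3 pairs no longer had one direction. Gimap4 had medians of 0.48 at 50 IU/mL and -0.25 at 5 IU/mL for the same contrast, a gap of 0.74, and 1 of its 6 counting intervals included no difference. Its 5 IU/mL pair of day 3 was 0.01 among cells without a Mki67 or Top2a UMI. Gimap8 had medians of 0.39 and -0.19, a gap of 0.58, and its 6 pairs kept these directions under the 3 scalings and in the non-cycling cells tried. Gimap8 also split by dose between IL-15 and IL-2, with medians of 0.45 at 50 IU/mL and -0.28 at 5 IU/mL, a gap of 0.73, and 2 of these 6 intervals included no difference. Its 50 IU/mL pair of day 10 was -0.03 under scaling by trimmed means and -0.09 with the mean CPM of single cells, so the split was lost there. Gimap7 was higher at 50 than at 5 IU/mL of IL-15 on all 3 days (median 0.06) and lower with IL-2 (-0.58), a gap of 0.65, and 1 of the 6 intervals included no difference. Its IL-15 pair of day 5 was -0.08 under scaling by trimmed means, and below 0 with totals that leave out ribosomal protein and mitochondrial genes, so the opposite directions were lost there. The contrasts of IL-2v and IL-15 with IL-2 share the IL-2 libraries.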

How the results depend on the processing

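No analysis paired by replicate was possible, because the labels give each condition 1 library. The pairs used match day, dose or cytokine, not replicates. Of 544 alternative values for 57 counts and shares, 524 stayed within 1.5 times the value reported or within its interval, and 20 did not. Most of these counts were 0 members called, and a 0 that stayed 0 is among the 524. That number therefore says little about the counts above 0, several of which moved. Sign was checked only for members called in the main setting, and 0 of these values changed sign. Scaling by trimmed means moved the median of all genes by -0.387 to 0.419 depending on the comparison. It changed the counts called lower to 1 for 50 IU/mL IL-2 against none on day 3, 1 for 5 IU/mL IL-2v and 6 for 50 IU/mL IL-2v on day 5, 1 for the dose of IL-2, and 2 for day 10 with 50 IU/mL IL-2 against naive. Counts called higher became 1 for day 5 against day 3 without cytokine and 1 for day 10 with 5 IU/mL IL-2v against naive. Library totals that leave out mitochondrial and ribosomal protein genes gave counts lower of 1 for 50 IU/mL IL-2 on day 3, 6 for 50 IU/mL IL-2v on day 5 and 1 for the dose of IL-2. Cells without a Mki67 or Top2a UMI gave 0 members lower for 50 IU/mL IL-2 and 0 for 50 IU/mL IL-2v on day 5, and 1 higher for day 10 with 5 IU/mL IL-2v against naive. The dose of IL-2 had 4 members called lower without day 3 and 2 without day 5. At most 5% mitochondrial UMIs gave 1 member lower on day 10 with 50 IU/mL IL-2v against naive, and a pseudocount of 10 CPM gave 0 higher for 50 IU/mL IL-15. The share of cells with a UMI of any member in the lowest library was 67.7% with thinning to 1000 UMIs and 97.9% without thinning, so this share follows depth. Apart from these constructions, the cause was not tested.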
